A study of Homo sapiens with 22 samples.

Results

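Small nucleolar RNAs and Cajal body RNAs were taken as all rows whose symbol begins with SNORD, SNORA or SCARNA and whose level reached 0.5 RPKM (reads per kilobase of transcript and per 1000000 reads) in at least 2 of 10 RNA-seq samples. Of 235 such rows, 120 met this level: 67 of 123 SNORD rows, 50 of 90 SNORA rows and 3 of 22 SCARNA rows (SCARNA12, SCARNA22 and SCARNA27). The members were chosen by these RPKM values themselves, so their levels are a description, and the members that passed only through 1 group had to differ. At the edge of the rule, the second highest values were 0.501 RPKM for SNORD36B and 0.507 for SNORA13, both kept, and 0.494 for SNORD102 and 0.489 for SNORD12B, both left out. SNORD125, SNORD6 and SNORD77 reached 0.5 RPKM only in the 2 samples of a single group, so a difference between groups in these 3 members was in part fixed by the choice. SNORA60 reached it only in Dex 2 h replicate 2 and Dex 4 h replicate 1, so the same holds for its differences between Dex and vehicle.

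The samples came from MDA-MB-231, a human triple-negative breast cancer cell line, and each of the 5 groups had 2 biological replicates. Cells were first deprived of steroids for 3 days, in phenol red-free RPMI whose serum (5%) had been charcoal-stripped, and then received vehicle, 100 nM Dex (dexamethasone, a synthetic glucocorticoid) or 10 μM CpdA (Compound A, a selective modulator of the glucocorticoid receptor). The ligands were given for 2 h or 4 h, and the labels gave no time for the vehicle samples, which served all comparisons. Depth ran from 51300000 to 62100000 reads a sample, with both vehicle samples shallower than every treated one. VIM was high (1267 to 1464 RPKM) and ESR1 lay at or near 0, while SPARC, listed as a marker of this line, stayed at or below 0.273 RPKM and the epithelial keratin KRT18 at 164 RPKM or above.

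Box C/D RNAs (SNORD) pair with ribosomal RNA and direct fibrillarin to methylate a ribose, and box H/ACA RNAs (SNORA) direct dyskerin to turn a uridine into pseudouridine. The SCARNA class works in Cajal bodies on the RNAs of the spliceosome. In human cells most of these guides are cut from introns of host genes, many of which encode ribosomal proteins or are noncoding SNHG genes, and the mature guides carry no poly(A) tail. Reads of a mature guide and of an unspliced host transcript could not be told apart in these libraries. The same holds for a spliced transcript with an exon over the guide. In bulk RNA, fewer cells with a transcript could not be told apart from less of it per cell.

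The sequences here belong to 8 of the 13 members that differed from vehicle in at least 1 comparison (SNORD22, SNORD28 and SNORA17 had no matched position). They are shown for the letters of the boxes that mark the classes, while the class of each member was assigned by its symbol. They were read 5′ to 3′ from GRCh37 at the position of the GENCODE entry whose chromosome and host matched RefSeq. Capitals mark TGATGN (the C box) in the first 20 bases and CTGA (the D box) in the last 20 bases of the SNORD members, and ANANNA near the middle and ACA in the last 8 bases of the others.
SNORD34: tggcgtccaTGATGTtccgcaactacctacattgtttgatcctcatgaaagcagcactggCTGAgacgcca
SNORD35A: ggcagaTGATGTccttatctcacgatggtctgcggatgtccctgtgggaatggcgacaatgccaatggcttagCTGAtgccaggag
SNORD88B: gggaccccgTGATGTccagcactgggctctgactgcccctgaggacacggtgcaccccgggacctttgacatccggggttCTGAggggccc
SNORD67: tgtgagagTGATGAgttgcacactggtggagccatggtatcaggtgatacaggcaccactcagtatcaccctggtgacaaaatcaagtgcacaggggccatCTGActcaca
SNORD6: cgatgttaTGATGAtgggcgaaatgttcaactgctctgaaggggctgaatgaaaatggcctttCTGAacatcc
SNORA60: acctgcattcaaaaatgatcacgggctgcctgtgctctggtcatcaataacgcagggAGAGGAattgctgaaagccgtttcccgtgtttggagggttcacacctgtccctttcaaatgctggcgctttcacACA
SNORA5A: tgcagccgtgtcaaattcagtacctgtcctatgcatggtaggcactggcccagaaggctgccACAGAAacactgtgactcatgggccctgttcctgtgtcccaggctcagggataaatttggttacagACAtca
SCARNA12: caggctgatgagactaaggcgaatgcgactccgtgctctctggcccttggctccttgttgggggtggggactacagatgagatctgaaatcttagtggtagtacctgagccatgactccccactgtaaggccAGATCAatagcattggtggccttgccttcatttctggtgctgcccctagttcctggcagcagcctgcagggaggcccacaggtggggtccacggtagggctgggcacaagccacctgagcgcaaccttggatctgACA

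SNORD34 lies at chr19:49994161-49994231 and SNORD35A at chr19:49994432-49994517, both on the plus strand and both overlapping annotated exon sequence of RPL13A. SNORD88B lies at chr19:51302289-51302379 on the minus strand over an exon of its host C19orf48. SNORD67 (chr11:46783939-46784049, minus strand, in CKAP5), SNORD6 (chr11:93464668-93464740, minus strand, in TAF1D) and SNORA5A (chr7:45143948-45144081, minus strand, in TBRG4) overlap no annotated exon and are intronic. SNORA60 (chr20:37078013-37078146, plus strand) and SCARNA12 (chr12:7076500-7076769, minus strand) overlap exon sequence of SNHG11 and PHB2.

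Of the 120 members, 88 could be placed on GRCh37 in this way, and 64 of these 88 overlapped an annotated exon on the same strand. TGATGN and CTGA were both found in these windows, on the member's own strand, in 42 of 46 placed SNORD members (91.3%) and in 0 of 40 placed SNORA members. In the stretch of equal length just before each SNORD member the pair was found in 0 of 46, and in the stretch just after in 1 of 46. ACA in the last 8 bases was found in 35 of 40 placed SNORA members (87.5%) against 5 of 46 SNORD members (10.9%), with 12.5% and 2.5% in the stretches before and after the SNORA members. The exact letters TGATGA were in 29 of 46 SNORD members (63.0%). ANANNA, sought anywhere in the member, was in 39 of 40 SNORA members (97.5%). It was also in 78.3% of SNORD members and in 87.5% of the stretches before and after the SNORA members, so it did not separate the classes. These matches describe the letters of the annotated stretch. SCARNA12 carried ACA and also both C/D letters. SNORD88B and SNORD88C agreed in 83 of 94 aligned positions (88.3%), and 0 of the 3828 pairs of placed members shared an identical stretch as long as a 50-base read.

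Most members rested on few reads. For 116 of the 120 members the RPKM values came out as whole reads, within 0.05 of a read, once multiplied by transcript length and depth. Of these, 110 did so with the RefSeq length and 6 with another length that was sought for this. Depth was itself set from the RPKM values, so whole reads are no separate check of it. The exceptions were SNORA17, SNORA31, SNORA34 and SNORA81. The mean number of reads per sample had a median of 4.70 over the members and ran from 0.70 to 62.1. It was under 5 for 63 members and at least 10 for 31. The SNORD members were the shorter class, with a median length of 75 bases against 133.5 for the SNORA members, and had fewer reads (median of 3.30 against 6.85 reads per sample). Their level per length was close, with a median of 0.776 RPKM for SNORD and 0.852 for SNORA.

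Zeros fell mainly in the shorter class. Of the 670 SNORD values, 58 (8.66%) were listed at 0, against 10 of 500 SNORA values (2%) and 0 of 30 SCARNA values. In all, 34 members were at 0 in at least 1 sample and 86 in none. Dex 2 h replicate 1 held the most listed zeros, 13 SNORD and 2 SNORA, and Dex 4 h replicate 1 the fewest, 3 SNORD and 0 SNORA. Another 5 values, of SNORD125 and SNORA84, were above 0 but under 0.5 reads and are not counted as zeros. They include SNORD125 in Dex 4 h replicate 1, and SNORD125 is therefore among the 86. Where both samples of a group were at 0, a floor of 3 reads over the group was used for folds. The reads of the other group were taken as exact, so these folds are not lower bounds. The floor, like every interval given, covers counting error only, since the reads carry no molecular identifiers.

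The highest SNORD member was SNORD36A, from RPL7A, whose mean level over the 10 samples was 5.63 RPKM (3.83 to 9.09), followed by SNORD76 and SNORD47 from GAS5 (means of 4.36 and 4.22), SNORD22 from SNHG1 (3.51) and SNORD35B (3.39). The highest SNORA members were SNORA70 from RPL10, with a mean of 8.04 RPKM (4.96 to 13.3), SNORA40 and SNORA18 from TAF1D (7.59 and 6.46), SNORA61 from SNHG12 (6.92) and SNORA67 from EIF4A1 (4.64 to 8.21). SNORA73B, which has a role in cutting the ribosomal precursor, lay between 0.730 and 1.58 RPKM. SCARNA2 was listed between 0.0424 and 0.321 RPKM and was not a member. SNORD3A, SNORD118, SNORD13 and SNORA73A had no row under these symbols and so were not analysed here.

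Summed levels of both classes were lowest in a Dex 2 h sample. Summed over the 67 SNORD members, the level was 7.38 and 7.70 RPM (reads per 1000000 reads of the sample) in the vehicle samples and 4.31 and 5.67 after Dex for 2 h. It was 8.51 and 6.50 after Dex for 4 h, 6.26 and 6.41 after CpdA for 2 h, and 6.70 and 7.03 after CpdA for 4 h. The SNORD sum was thus lower than in both vehicle samples in every treated sample but Dex 4 h replicate 1, which was the highest of all. The 50 SNORA members together gave 10.9 and 12.6 RPM in vehicle and 7.91 and 10.3 after Dex for 2 h. They gave 15.5 and 10.6 after Dex for 4 h, 10.0 and 9.87 after CpdA for 2 h, and 10.9 and 11.3 after CpdA for 4 h. Here, too, both Dex 2 h samples lay below both vehicle samples, and the 2 samples given Dex for 4 h lay on opposite sides of them.

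**Figure D1:**
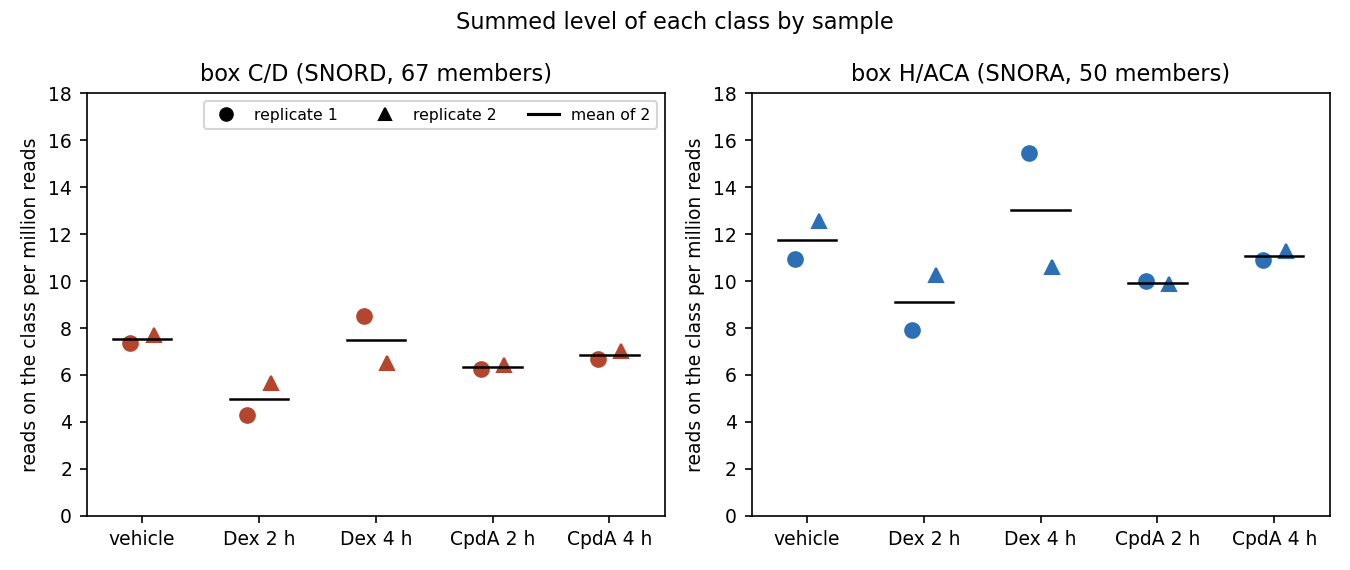
Reads on all members of a class in RPM (y axis, from 0) in the 5 groups (x axis), for the 67 box C/D members (left) and the 50 box H/ACA members (right). Circles and triangles are replicates 1 and 2 and the bar is their mean, and Dex 2 h replicate 1 is the lowest and Dex 4 h replicate 1 the highest sample in both classes.

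The spread within the Dex groups was larger than counting alone gives. All members together held 12.8 RPM in Dex 2 h replicate 1 (exact Poisson 95% interval 11.9 to 13.8) and 16.6 in replicate 2 (15.6 to 17.6). For Dex 4 h the values were 24.7 (23.4 to 26.1) and 17.8 (16.7 to 18.9). The long nuclear RNA NEAT1 was at 9.0 and 16.3 RPKM in the same Dex 2 h samples, at 17.3 and 10.8 in the Dex 4 h samples, and at 13.3 and 17.6 in vehicle. MALAT1 was at 13.3 and 19.5, at 20.7 and 14.6, and at 17.03 and 19.97. In both genes the replicates of a Dex group lay in the same order as the sums of the members, though no comparison with vehicle passed for them, and their part in the result was not tested. SNORA reads per SNORD read were 1.48 and 1.63 in vehicle and between 1.54 and 1.84 in the treated samples, with both Dex 2 h samples (1.84 and 1.81) above both vehicle samples.

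Each member was then compared between groups with limma on log2(RPKM + 0.1), fitted over all 12713 rows kept, with p-values adjusted by the Benjamini-Hochberg method over those rows and a threshold of 0.05. The 4 comparisons with vehicle share the vehicle samples. Between vehicle and Dex for 2 h, 7 members passed, 1 higher and 6 lower, which is 5.83% of members against 10.3% of all rows (4.49% higher and 5.82% lower). After Dex for 4 h, 2 were higher and 2 lower (3.33% of members, against 27.4% of all rows, 9.26% higher and 18.2% lower). After CpdA for 2 h, 1 was higher and 2 were lower (2.5%, against 6.18%, or 1.89% higher and 4.29% lower). After CpdA for 4 h, 3 were higher and 2 lower (4.17%, against 20.5%, or 6.76% higher and 13.8% lower). By the adjusted p alone, the share of members was below that of all rows in each comparison. With a fitted fold over 2 besides, 6 of the 120 members remained after Dex for 2 h (against 2.01% of all rows) and 3 of 120 after Dex for 4 h (against 3.78%). After CpdA for 2 h it was 1 of 120 (against 0.488%), and after CpdA for 4 h 4 of 120 (against 0.889%). By this rule the share of members was above that of all rows except after Dex for 4 h. These counts include the members called through zeros, whose fitted fold depends on the added 0.1. At an unadjusted p under 0.05 the numbers were 27 after Dex for 2 h (22.5%, against 21.8% of all rows), 12 after Dex for 4 h (10%, against 38.4%), 17 after CpdA for 2 h (14.2%, against 20.3%) and 12 after CpdA for 4 h (10%, against 33.2%). Over the 5 groups at once, 14 members differed (11.7%, against 41.4%), 10 of them SNORD, 3 SNORA and 1 SCARNA.

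By class, the calls after Dex for 2 h were 6 of 67 SNORD members, all lower, and 1 of 50 SNORA members, which was higher. After Dex for 4 h they were 3 SNORD and 1 SNORA member, and after CpdA for 2 h 3 SNORD members. After CpdA for 4 h they were 1 SNORD, 3 SNORA and 1 SCARNA member. The median log2 difference after Dex for 2 h was −0.56 over the SNORD and −0.29 over the SNORA members, against −0.02 over all rows, and 75% of members had an estimate below 0, against 56.4% of all rows. After CpdA for 2 h it was −0.36 and −0.30, against −0.02, with 70% of members below 0, against 55.1%. At 4 h it was 0.02 and 0.13 with Dex and −0.11 and −0.10 with CpdA, where the median of all rows was −0.05 and −0.04. The share of members below 0 was then 45% (against 61.8% of all rows) and 59.2% (against 58.4%).

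These medians moved with single samples. In an alternative added after the data were seen, the median over all members after Dex for 2 h was −0.41 with every sample, −0.20 without Dex 2 h replicate 1 and −0.62 without replicate 2. After Dex for 4 h it was 0.08, and turned to −0.10 without Dex 4 h replicate 1 and to −0.13 without vehicle replicate 1. Both Dex 2 h samples lay below both vehicle samples in 41 of 120 members (34.2%), beside 31.4% of all rows, and above both in 2 (1.67%), beside 20.1%. For Dex 4 h the counts were 22 below (18.3%, beside 36.6%) and 16 above (13.3%, beside 18.5%). For CpdA 2 h they were 40 below (33.3%, beside 33% of all rows) and 10 above (8.33%, beside 21.6%), and for CpdA 4 h 26 below (21.7%, beside 39.5%) and 16 above (13.3%, beside 25.1%). The shares of members lying below vehicle at 2 h were thus close to those of all rows, and the shares lying above were smaller in each comparison.

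**Figure D2:**
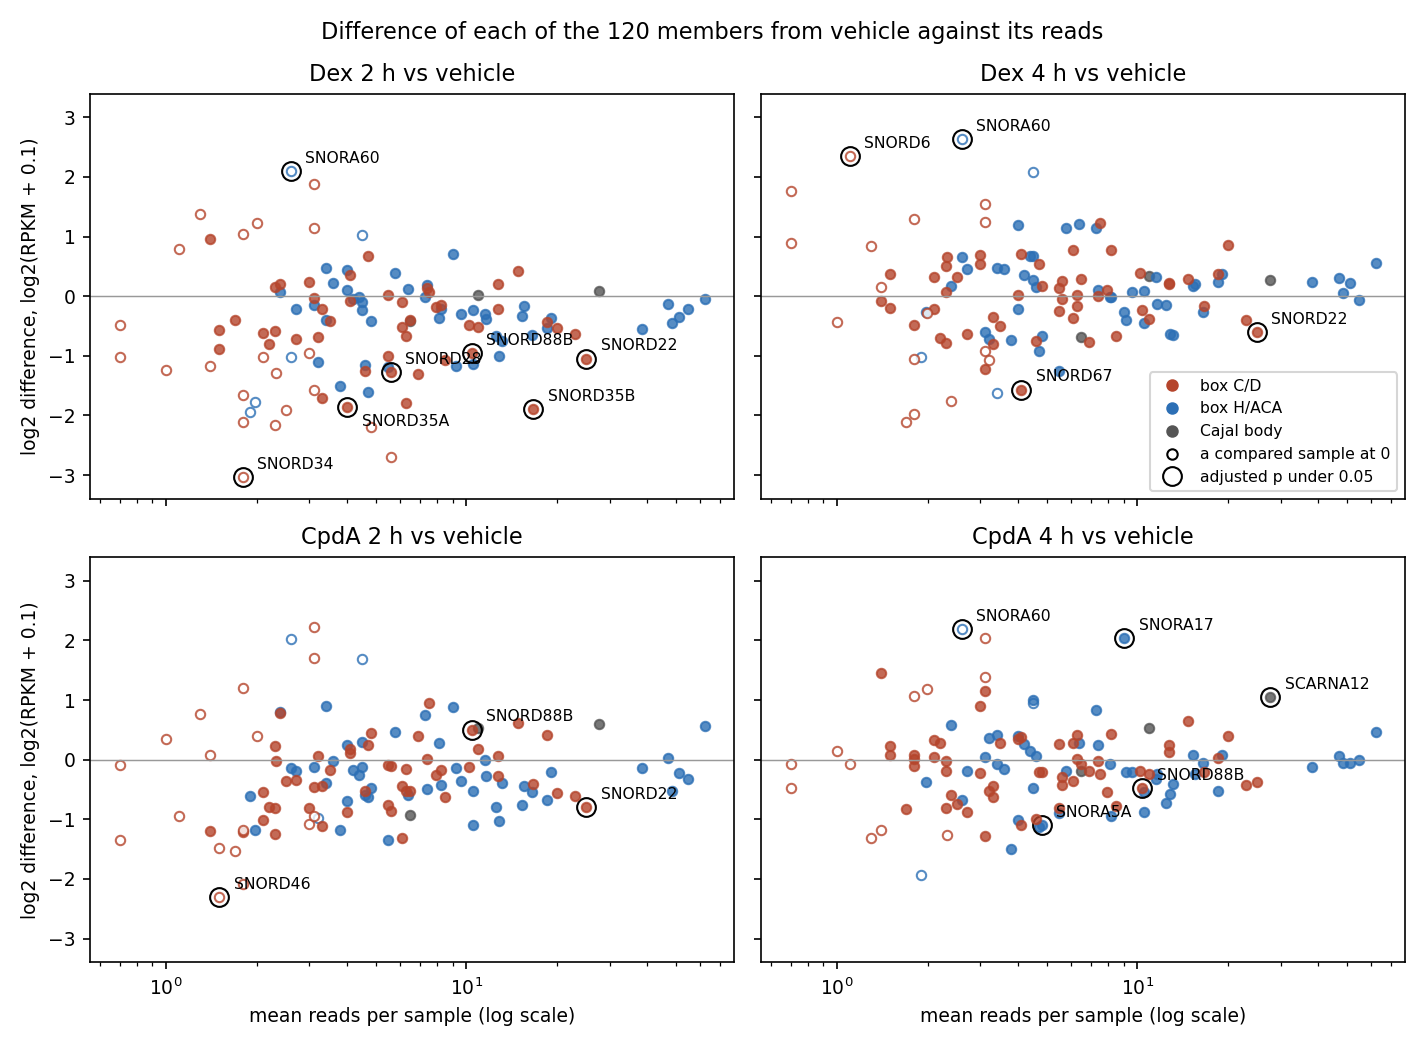
Log2 difference from vehicle on the log2(RPKM + 0.1) scale (y axis) against the mean reads per sample (x axis, log scale) for the 120 members, 1 panel per treatment. Open points have a compared sample at 0, where the plotted difference depends on the added 0.1, and black rings mark an adjusted p under 0.05: 5 of the 19 ringed points rest on a group with both samples at 0.

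The 19 calls against vehicle concerned 13 members, and 107 members had none. In 5 of the calls both samples of a group were at 0, in 1 call a single sample was, and 13 calls, in 9 members, had reads in all 4 samples compared. Of the 13 members, 7 had a mean under 5 reads per sample. For the 14 calls with reads in both groups, the ratio of the pooled reads was also set against its counting error, as an exact 95% interval: the interval left out 1 in 7 calls and held 1 in the other 7. The 5 calls with a group at 0 were given no such interval.

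SNORD34, from the ribosomal protein gene RPL13A, was called through zeros. It had 2 and 3 reads in vehicle (0.591 and 0.875 RPKM), 0 and 0 after Dex for 2 h, 1 and 3 after Dex for 4 h, 1 and 1 after CpdA for 2 h, and 6 and 1 after CpdA for 4 h. Set at a floor of 3 reads over the group, the level after Dex for 2 h was 1.94-fold lower than in vehicle (limma adjusted p = 0.0147). That fold takes the vehicle reads as exact. Its host RPL13A, a protein of the large ribosomal subunit, was at 238 and 242 RPKM in vehicle and at 240.2 and 228 after Dex for 2 h (log2 difference −0.04, limma adjusted p = 0.813).

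SNORD46 had 2 and 2 reads in vehicle, 1 and 1 after Dex for 2 h, 3 and 1 after Dex for 4 h, 0 and 0 after CpdA for 2 h, and 3 and 2 after CpdA for 4 h. The groups given CpdA for 2 h and vehicle did not overlap, and the difference rests on 4 reads against 0. Set at a floor of 3 reads over the group, the level after CpdA for 2 h was 1.53-fold lower than in vehicle (limma adjusted p = 0.00809). That fold takes the vehicle reads as exact.

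SNORA60, from the noncoding host SNHG11, was the reverse case, with the zeros in vehicle. Both vehicle samples had 0 reads, and the treated samples had 1 and 6 (Dex 2 h), 5 and 3 (Dex 4 h), 3 and 2 (CpdA 2 h) and 4 and 2 (CpdA 4 h). Every treated sample had at least 1 read. Against a floor of 3 reads over the vehicle group, with the treated reads taken as exact, it was 2.00-fold higher after Dex for 2 h (limma adjusted p = 0.0398). It was 2.49-fold higher after Dex for 4 h (limma adjusted p = 0.00628) and 1.74-fold higher after CpdA for 4 h (limma adjusted p = 0.0209). It did not pass after CpdA for 2 h. Since only Dex samples brought it to 0.5 RPKM, its calls with Dex are a description. The call after Dex for 2 h was lost without Dex 2 h replicate 2 (limma adjusted p = 0.184) or either vehicle sample (0.106 and 0.164), and that after CpdA for 4 h without CpdA 4 h replicate 1 (0.148) or either vehicle sample (0.0802 and 0.0741). SNHG11 itself lay between 4.88 and 5.74 RPKM in all 10 samples and passed in no comparison. SNORD6 had 0 and 1 reads in vehicle and 3 and 4 after Dex for 4 h, the only group where it reached 0.5 RPKM, and its pooled ratio was 6.54 with a counting interval of 0.841 to 295.

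SNORD22 had the most vehicle reads of the 13 members. It lies in SNHG1, a noncoding host of 8 members, and had 35 and 31 reads in vehicle, 15 and 22 after Dex for 2 h, 23 and 23 after Dex for 4 h, 23 and 20 after CpdA for 2 h, and 30 and 28 after CpdA for 4 h. All 8 treated samples lay below both vehicle samples. Its level was 5.08 ± 0.483 RPKM (SD, n = 2) in vehicle and 2.43 ± 0.543 after Dex for 2 h, and fell by 1.05 on the log2 scale (SE 0.13, limma adjusted p = 0.000856). It also fell by 0.60 after Dex for 4 h (SE 0.13, limma adjusted p = 0.00947) and by 0.80 after CpdA for 2 h (SE 0.13, limma adjusted p = 0.00951). The pooled reads after Dex for 2 h were 0.481 of those in vehicle per read sequenced (counting interval 0.312 to 0.730), after Dex for 4 h 0.652 (0.437 to 0.964), and after CpdA for 2 h 0.566 (0.376 to 0.844). The call after Dex for 4 h was lost without vehicle replicate 1 (limma adjusted p = 0.0676), and that after CpdA for 2 h without either CpdA sample (0.0538 and 0.0882).

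SNORD28, from the same host, had 7 and 6 reads in vehicle and 4 and 2 after Dex for 2 h, where it fell by 1.28 (SE 0.33, limma adjusted p = 0.0378). The counting interval of its pooled ratio, 0.123 to 1.12, held 1, and the call was lost without Dex 2 h replicate 2 (log2 difference −0.81, limma adjusted p = 0.217) or either vehicle sample (0.133 and 0.118). The other 6 members of SNHG1 passed in no comparison with vehicle. Together the 8 members had 60 and 74 reads in vehicle and 32 and 55 after Dex for 2 h, or 1.17 and 1.42 against 0.549 and 0.886 RPM. SNHG1 fell as well, from 44.2 and 52.6 to 32.0 and 36.1 RPKM (log2 difference −0.50, SE 0.08, limma adjusted p = 0.00452). After CpdA for 2 h its members lay at 0.840 and 0.758 RPM while SNHG1 was at 50.5 and 51.7 RPKM (log2 difference 0.08, limma adjusted p = 0.651), so that SNORD22 fell there beside a host that did not pass.

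RPL13A itself did not pass in any comparison with vehicle, while 2 of its 4 members did. These 4, SNORD32A, SNORD33, SNORD34 and SNORD35A, had 18 and 16 reads together in vehicle and 5 and 8 after Dex for 2 h, or 0.351 and 0.308 against 0.0858 and 0.129 RPM. They had 14 and 16 reads after Dex for 4 h, 9 and 11 after CpdA for 2 h, and 17 and 21 after CpdA for 4 h. SNORD35A had 3 and 6 reads in vehicle and 1 and 1 after Dex for 2 h, and fell by 1.86 (SE 0.48, limma adjusted p = 0.0385). Its pooled ratio was 0.191, with a counting interval of 0.0200 to 0.921, and the call was lost without either Dex 2 h sample or vehicle replicate 2 (limma adjusted p = 0.157 to 0.263). SNORD34 is described above, and SNORD32A and SNORD33 passed in no comparison with vehicle. The lower sum was not particular to RPL13A and SNHG1, whose sums include the called members. The members of NOP56 went from 0.624 and 0.674 RPM in vehicle to 0.258 and 0.338 after Dex for 2 h. Those of SNHG12, TAF1D and GAS5 were also lower in both Dex 2 h samples than in both vehicle samples, and those of EIF4A2 overlapped.

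SNORD35B, another box C/D member, had more reads. They numbered 18 and 22 in vehicle and 3 and 11 after Dex for 2 h, and in the other 3 groups between 14 and 23. Its level was 4.45 ± 0.588 RPKM (SD, n = 2) in vehicle and 1.31 ± 1.02 after Dex for 2 h, and it fell by 1.90 (SE 0.43, limma adjusted p = 0.0223). The pooled ratio was 0.300 with a counting interval of 0.151 to 0.563. The difference was −1.09 without Dex 2 h replicate 1 and −2.71 without replicate 2, and the call was lost in 6 of 14 alternatives, 2 of which left out a vehicle sample (limma adjusted p = 0.0599 and 0.140).

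SNORD88B, hosted by C19orf48, differed from vehicle in 3 comparisons and not in 1 direction. It had 10 and 11 reads in vehicle, 6 and 6 after Dex for 2 h, 9 and 10 after Dex for 4 h, 20 and 15 after CpdA for 2 h, and 8 and 9 after CpdA for 4 h. It fell by 0.96 after Dex for 2 h (SE 0.12, limma adjusted p = 0.000859), rose by 0.50 after CpdA for 2 h (limma adjusted p = 0.0472) and fell by 0.48 after CpdA for 4 h (limma adjusted p = 0.0240). The counting interval of the pooled ratio held 1 in all 3: 0.220 to 1.04, 0.820 to 2.62 and 0.348 to 1.40. For all 3 calls the reads alone did not separate the groups beyond counting error. The rise after CpdA for 2 h was 0.33 without CpdA 2 h replicate 1 (limma adjusted p = 0.327) and was also lost without either vehicle sample (0.122 and 0.127), and the fall after CpdA for 4 h was lost when any 1 of its 4 samples was left out (0.0546 to 0.162). C19orf48 passed against vehicle only after Dex for 4 h, where it fell by 0.46 (limma adjusted p = 0.00126).

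SNORD67, in an intron of CKAP5, was called on fewer reads. It had 3 and 5 reads in vehicle, 3 and 6 after Dex for 2 h, 1 and 1 after Dex for 4 h, 6 and 4 after CpdA for 2 h, and 6 and 6 after CpdA for 4 h. After Dex for 4 h it fell by 1.56 (SE 0.29, limma adjusted p = 0.00367), with a pooled ratio of 0.234 whose counting interval, 0.0242 to 1.17, held 1. CKAP5 itself was at 52.2 and 50.5 RPKM in vehicle and at 43.8 and 53.4 after Dex for 4 h (limma adjusted p = 0.479).

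**Figure D3:**
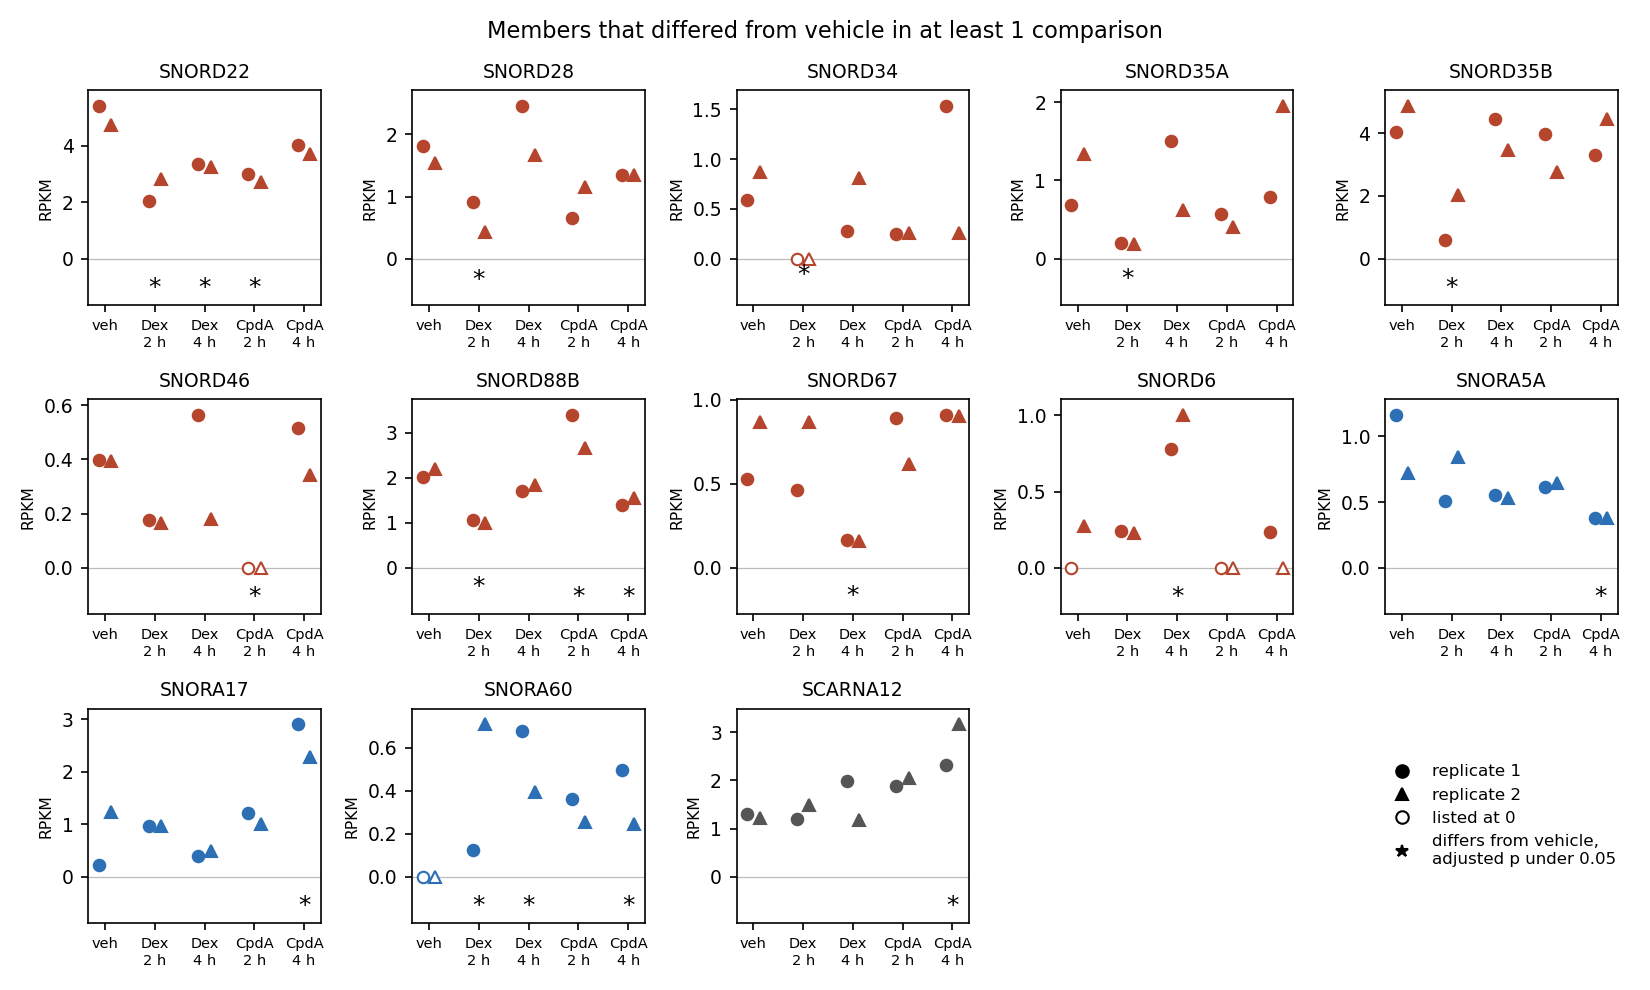
RPKM in each sample (y axis, a separate scale per panel) for the 13 members that differed from vehicle in at least 1 comparison, by group (x axis). Circles and triangles are replicates 1 and 2, open symbols are values listed at 0, and an asterisk marks a group that differed from vehicle at an adjusted p under 0.05. SNORD34, SNORD46 and SNORA60 have groups with both samples at 0, and SNORD22 is below vehicle in all 8 treated samples.

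SCARNA12 and SNORA17 were the members above 0 in all samples that rose after CpdA for 4 h. SCARNA12, in PHB2, had 18 and 17 reads in vehicle, 19 and 25 after Dex for 2 h, 29 and 18 after Dex for 4 h, 31 and 32 after CpdA for 2 h, and 37 and 51 after CpdA for 4 h. Its level was 1.26 ± 0.0626 RPKM (SD, n = 2) in vehicle and 2.74 ± 0.608 after CpdA for 4 h, and rose by 1.05 (SE 0.22, limma adjusted p = 0.0103). The pooled reads were 2.18 times those in vehicle, with a counting interval of 1.46 to 3.33. The call was lost without CpdA 4 h replicate 2 (log2 difference 0.83, limma adjusted p = 0.0883) or vehicle replicate 2 (0.0523). PHB2 lay at 86.7 and 87.9 RPKM in vehicle and at 92.9 and 88.3 after CpdA for 4 h (limma adjusted p = 0.549). The other SCARNA members, SCARNA22 and SCARNA27, passed in no comparison.

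SNORA17, in SNHG7, was at 0.219 and 1.23 RPKM in vehicle, 0.970 and 0.959 after Dex for 2 h, 0.392 and 0.496 after Dex for 4 h, 1.21 and 0.999 after CpdA for 2 h, and 2.91 and 2.27 after CpdA for 4 h. It rose by 2.04 after CpdA for 4 h (SE 0.51, limma adjusted p = 0.0221), with a counting interval of the pooled ratio of 1.75 to 7.97. Its values did not come out as whole reads, so these counts are estimates, and its vehicle samples lay far apart, the first below every treated sample and the second above all but the CpdA 4 h samples. Leaving out vehicle replicate 1 brought the difference to 1.01, leaving out the second vehicle sample brought it to 3.07, and the call was lost in 4 of 14 alternatives, among them leaving out either CpdA 4 h sample (limma adjusted p = 0.130 and 0.0774). SNHG7 was at 10.4 and 12.2 RPKM in vehicle and at 11.5 in both CpdA 4 h samples (limma adjusted p = 0.847). SNORA5A, in TBRG4, had 8 and 5 reads in vehicle and 3 and 3 after CpdA for 4 h, where it fell by 1.09 (SE 0.24, limma adjusted p = 0.0133) with a counting interval of 0.125 to 1.13. That call was lost without either CpdA 4 h sample or vehicle replicate 1 (limma adjusted p = 0.0734 to 0.0797).

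The share of hosts that differed from vehicle was near that of all rows after Dex for 2 h and lower in the other 3 comparisons. RefSeq placed 117 of the 120 members in 64 hosts, of which 23 held 2 or more members, and all 64 were tested. After Dex for 2 h 1 host was higher and 6 were lower (10.9%, against 10.3% of all rows). After Dex for 4 h 4 were higher and 5 lower (14.1%, against 27.4%), after CpdA for 2 h 0 and 1 (1.56%, against 6.18%), and after CpdA for 4 h 4 and 3 (10.9%, against 20.5%). The median log2 difference over the hosts was −0.01, 0.03, 0.02 and 0.09 in this order, beside −0.02, −0.05, −0.02 and −0.04 over all rows. PPAN, a ribosome assembly factor that hosts SNORD105, was the host called lower in all 4 comparisons, by 0.31, 0.40, 0.43 and 0.31 on the log2 scale, with limma adjusted p between 8.41e-05 and 0.000881. SNORD105 itself was at 0 in 6 of the 10 samples. GAS5, host of 6 members including SNORD76 and SNORD47, passed in no comparison. Its members had 57 and 55 reads in vehicle, 32 and 56 after Dex for 2 h, and 95 and 67 after Dex for 4 h.

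**Figure D4:**
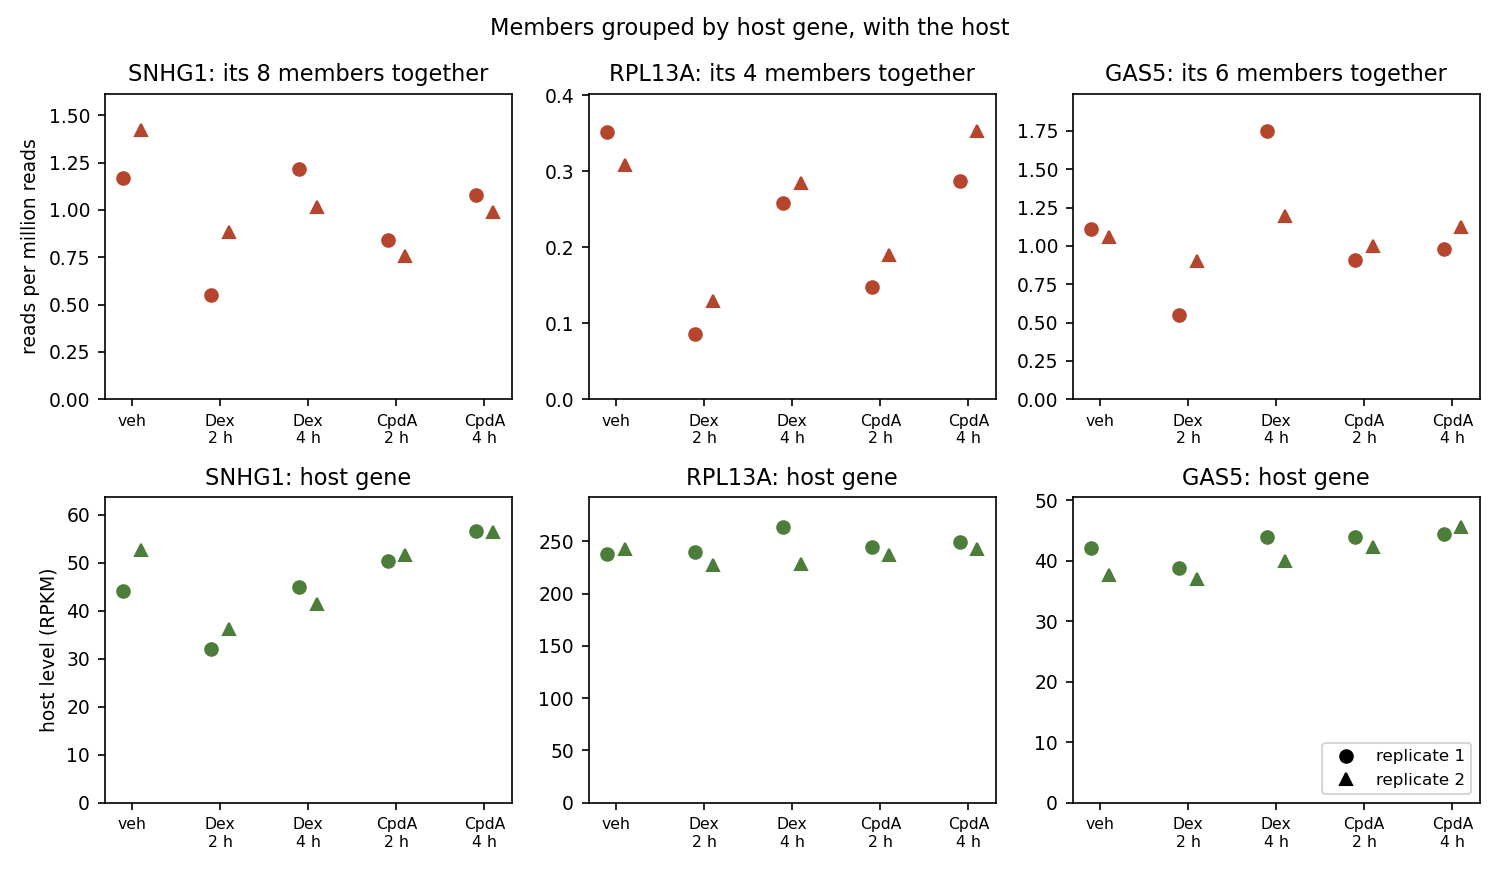
Reads on the members of 3 host genes in RPM (top row) and the level of the host in RPKM (bottom row), by group (x axis), with circles and triangles for replicates 1 and 2 and all y axes from 0. After Dex for 2 h the 4 members of RPL13A lie at 0.0858 and 0.129 against 0.351 and 0.308 in vehicle while RPL13A stays between 228 and 242, and the members of SNHG1 and SNHG1 itself are both lower. The members of GAS5, and those of NOP56, SNHG12 and TAF1D (not shown), are also lower in both Dex 2 h samples than in both vehicle samples.

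The proteins that bind, assemble or modify these RNAs were given as 23 genes: those of the box C/D and H/ACA particles, of Cajal bodies, and of particle assembly. After Dex for 2 h 1 of them was higher and 3 lower (17.4%, against 10.3% of all rows) and after Dex for 4 h 1 and 6 (30.4%, against 27.4%). After CpdA for 2 h it was 0 and 0 (against 6.18%), and after CpdA for 4 h 0 and 3 (13%, against 20.5%). TGS1, which adds further methyl groups to the cap of small RNAs, went from 5.10 and 5.62 RPKM in vehicle to 12.6 and 12.4 after Dex for 2 h and rose by 1.21 (SE 0.06, limma adjusted p = 2.06e-06). It was still higher by 0.73 after Dex for 4 h (limma adjusted p = 2.72e-05) and lay between 5.04 and 5.23 with CpdA. NAF1, which assembles box H/ACA particles, fell by 0.26 and 0.50 with Dex at 2 h and 4 h (limma adjusted p = 0.0321 and 0.000400). ZNHIT6, an assembly factor of box C/D particles, fell by 0.31 and 0.55 (0.00417 and 5.24e-05), and NOP58, a core box C/D protein, by 0.15 and 0.27 (0.0261 and 0.000547). The 3 called after CpdA for 4 h were ZNHIT6, which fell by 0.18 (limma adjusted p = 0.0348), and the Cajal body proteins COIL and WRAP53, which fell by 0.20 and 0.22 (0.0283 and 0.0204). The enzymes of the particles themselves, FBL and DKC1, passed in none of the 4 comparisons. NOP56 and NHP2L1 of the box C/D particle and NHP2, NOP10 and GAR1 of the H/ACA particle passed in none either. Of 115 other rows for short or mostly non-polyadenylated RNAs (such as microRNA and histone symbols), 4 were higher and 4 lower after Dex for 2 h (6.96%, against 10.3% of all rows), 6 and 7 after Dex for 4 h (11.3%, against 27.4%), 3 and 3 after CpdA for 2 h (5.22%, against 6.18%), and 11 and 3 after CpdA for 4 h (12.2%, against 20.5%).

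Dex and CpdA were also compared directly at each time. At 2 h, 1 member was higher with Dex and 2 were lower (2.5% of members, against 13.7% of all rows, 7.53% higher and 6.18% lower), and at 4 h 4 were higher and 4 lower (6.67%, against 33.4%, or 15.4% higher and 18% lower). With a fitted fold over 2 besides, 3 and 7 of the 120 members remained, against 2.3% and 4.34% of all rows. By this rule the share of members was near that of all rows at 2 h and somewhat larger at 4 h. These counts include members called through zeros, SNORD46 at 2 h and SNORD59A, SNORD6 and SNORA71B at 4 h. Their fitted fold depends on the added 0.1. SNORD88B differed at 2 h by −1.46 on the log2 scale (SE 0.12, limma adjusted p = 4.55e-05), with 6 and 6 reads under Dex and 20 and 15 under CpdA and a counting interval of the pooled ratio of 0.160 to 0.668. Its host C19orf48 was also lower with Dex, at 31.8 and 31.6 RPKM against 39.1 and 37.5 (log2 difference −0.27, limma adjusted p = 0.0355), and the part of this in the result was not tested. At 4 h SNORD67 differed by −1.94 (SE 0.29, limma adjusted p = 0.000838), with 1 and 1 reads under Dex and 6 and 6 under CpdA and an interval of 0.0195 to 0.806. SNORA17 differed by −2.30 (SE 0.51, limma adjusted p = 0.00744) and SCARNA12 by −0.78 (SE 0.22, limma adjusted p = 0.0244), both lower with Dex. SNORA17 was lost without CpdA 4 h replicate 1 (limma adjusted p = 0.0525), and SCARNA12 was at −0.56 without CpdA 4 h replicate 2 (0.177) and at −0.43 without Dex 4 h replicate 2 (0.103).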

How the data were processed

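RNA was sequenced as 50-base single-end reads from TruSeq libraries of the 10 samples. Per the labels and the submitters' processing notes, the authors used TopHat2 2.0.13 with Bowtie and Partek 6.6 and name hg19, and deposited RPKM for 20668 symbols per sample. How transcripts were combined into a symbol, and the annotation, are not given in the sources used here. No strand setting was found in them, so reads of overlapping genes on opposite strands cannot be told apart. The replicates are separate biological samples per the study.

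Depth was recovered from the RPKM step of 1 read and RefSeq lengths. Another length gave whole reads for 6 members, and 4 members gave fractions. The deposited RPKM were used as log2(RPKM + 0.1), with rows kept at 0.5 RPKM or more in 2 samples, in limma 3.58.1 (R 4.3.3; trend in eBayes, 5 groups in 1 fit). No count test was run on the recovered reads. The fit was tested on simulated data for Dex 2 h against vehicle over 12713 rows. It found 198 of 200 rows set to differ by a log2 value of 2 and called 9 others, and it called 0 rows in data with no difference. The changed rows were drawn only from rows whose mean log2(RPKM + 0.1) was above 0. The noise was Gaussian, and the counting of reads was not simulated. The simulation therefore cannot tell how the fit does on members with few reads or zeros. Counting intervals are exact (Poisson, or Clopper-Pearson for the split of pooled reads), with scipy 1.17.1. Tables used Python 3.11.15, numpy 2.4.6 and pandas 2.3.3, and figures matplotlib 3.10.9.

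The members and lists were chosen with earlier results of these data known. Named members were SNORD34 and SNORD46, up to 5 in each direction per comparison with vehicle among those called with separate groups, the 5 highest per class, a few with known roles and those at the edge of the 0.5 RPKM rule. Members called only between Dex and CpdA were named after their values were seen. Hosts came from RefSeq (GRCh38, used for names and neighbours only) and positions from GENCODE v44 lifted to GRCh37. Alternatives covered the pseudocount, filter, trend, normalization, samples in the fit, a replicate block and leaving out each replicate, and the medians without each replicate were added after the data were seen. Some sequences, positions and hosts are not reported here. The ChIP samples were not used here.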

Additional observations from a re-analysis of the deposited data

Results flagged for a closer look

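The effects of Dex and CpdA at the same time differed in the limma fit for 11 member and time pairs. At 2 h these were 2.5% of members, against 13.7% of all rows, and at 4 h 6.67%, against 33.4%, so such differences were rarer among the members. SNORA6, SNORA71B, SNORD57, SNORD59A and SNORD83B, which differed from vehicle in no comparison, were named after their values were seen. At 2 h, SNORD88B (limma adjusted p = 4.55e-05) and SNORD57 (2 and 5 reads under Dex, 9 and 14 under CpdA, limma adjusted p = 0.0145) were lower with Dex. SNORD46 had 1 and 1 reads under Dex and 0 and 0 under CpdA (limma adjusted p = 0.0340), so both groups lie under the floor of 3 reads.

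At 4 h, SNORD67 (limma adjusted p = 0.000838), SNORA17 (limma adjusted p = 0.00744) and SCARNA12 (limma adjusted p = 0.0244) were lower with Dex, as was SNORA71B, with 2 and 0 reads against 3 and 10 (limma adjusted p = 0.0397). SNORD83B, with 7 and 5 reads under Dex and 2 and 1 under CpdA (limma adjusted p = 0.0110), and SNORA6, with 8 and 11 against 4 and 3 (limma adjusted p = 0.0341), were higher with Dex. SNORD6 had 3 and 4 reads against 1 and 0 (limma adjusted p = 0.0194), and SNORD59A 2 and 1 against 0 and 0 (limma adjusted p = 0.0451). For SNORD59A both groups are at or under the floor of 3 reads, and for SNORD6 the choice of members fixed part of the difference.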

How the results depend on the processing

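The 30 calls were recomputed under 13 or 14 alternatives each, 404 values in all: 286 stayed past the threshold, 118 did not, and 0 changed sign. Only 6 calls passed under every alternative run: SNORD22 and SNORD88B after Dex for 2 h, SNORA60 and SNORD67 after Dex for 4 h, SNORD88B between the ligands at 2 h and SNORD67 between them at 4 h. The stricter filter, a mean of at least 1 RPKM, left out SNORA60 and SNORD67, so their calls were run under 13 alternatives. For SNORA60 the choice of members also fixed part of the difference between Dex and vehicle. SNORD34 after Dex for 2 h was lost with a pseudocount of 1 (limma adjusted p = 0.126) and without the filter (0.0667). It was also lost without Dex 2 h replicate 1, Dex 2 h replicate 2 or vehicle replicate 2 (log2 differences of −3.04, −3.04 and −2.79). SNORD46 after CpdA for 2 h was lost without either CpdA sample or vehicle replicate 2.

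Counts moved as follows, and the cause was not tested. For these counts, and for those without 1 replicate or with a replicate block below, the share of all rows called was not worked out. The counts therefore cannot tell whether a change was particular to the members. Dex 2 h (7): 3 with eBayes without a trend, 2 with no filter, 4 with robust eBayes. Dex 4 h (4): 11 with only the 4 samples, 1 with the stricter filter. CpdA 2 h (3): 6 with only the 4 samples. CpdA 4 h (5): 2 with no filter, 10 with only the 4 samples, 3 with the stricter filter. Dex against CpdA at 2 h (3): 1 with no filter, 13 with only the 4 samples. At 4 h (8): 5 without a trend, 3 with no filter, 14 with only the 4 samples, 3 with the stricter filter. Over all 5 groups (14): 4 with no filter, 9 with the stricter filter. 

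Leaving out 1 replicate gave 4 to 16 members for Dex 2 h (16 without Dex 2 h replicate 2, 4 without vehicle replicate 2), 9 to 12 for Dex 4 h (9 without either Dex sample, 12 without vehicle replicate 1, 10 without vehicle replicate 2), 0 to 9 for CpdA 2 h (0 without CpdA 2 h replicate 1, 9 without vehicle replicate 1), 2 to 9 for CpdA 4 h (2 without either CpdA sample, 9 without vehicle replicate 1), 1 to 14 between the ligands at 2 h (1 without CpdA 2 h replicate 2, 14 without Dex 2 h replicate 2), 5 to 10 at 4 h (5 without CpdA 4 h replicate 2), and 13 to 26 over all groups (25 without Dex 2 h replicate 2, 23 without Dex 4 h replicate 2, 26 without vehicle replicate 1). The lone sample is then assumed to vary like the other groups, and the share of all rows called in these fits was not worked out.

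The replicate numbers were not taken to pair the samples: deviations of same-numbered samples correlated at −0.06 to 0.20 over all rows and −0.07 to 0.29 over the members in the 10 pairs of groups, and not every pair was over 0.1. With a replicate block the counts were 10, 6, 2 and 7 against vehicle, 5 and 9 between the ligands at 2 h and 4 h, and 20 over all groups. Of the 7 calls after Dex for 2 h, 5 were shared with the block, and SNORA60 (adjusted p 0.0592) and SNORD35A (0.0571) were not.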
